A study of Mus musculus with 17 samples.

Results

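The heat shock proteins and DnaJ proteins are the cell's molecular chaperones, and 69 of the 13501 genes in the table belong to them: 28 whose symbol starts with Hsp followed by a, b, d, e, h or 9 (Hspg2 excepted) and 41 whose symbol starts with Dnaj, pseudogenes left out. A floor on low values (a normalized count of at least 10 in at least 3 libraries) was passed by 65 of the 69. The 4 others were Dnajb3 (range over the libraries 0 to 7.53), Dnajb7 (0 to 13.1), Hspb2 (0 to 7.86) and Hspb9 (0 to 7.53). The values are RNA-seq read counts divided by a size factor for each library, from living CD45+CD11b+ cells sorted from mouse brain.

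The 5 groups were normal microglia from mice without amyloid (libraries S20, S21 and S36), microglia of Trem2 wild-type 5xFAD mice (S22 to S24), microglia of Trem2 knockout 5xFAD mice (S25 to S27), and myeloid cells derived from the circulation, taken from the brains of 5xFAD hosts without Trem2 that had received a marrow transplant and PLX5622. The donor marrow was Trem2 wild type in S28 to S31 and Trem2 knockout in S32 to S35. The normal mice were wild type without 5xFAD, by their genotype label. 5xFAD mice carry transgenes that lead to amyloid plaques in the brain, Trem2 is a lipid-sensing receptor of microglia, and PLX5622 inhibits CSF1R, on which microglia depend. Ages and sexes are not given in the labels, and the labels do not say whether the libraries of a group came from separate mice. In the comparisons of transplanted cells with microglia, the origin of the cells, the marrow transplant, the drug and, for wild-type cells, the Trem2 genotype of the host changed together and cannot be told apart. In these bulk samples, fewer cells of a type and less RNA per cell also cannot be told apart.

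HSP70 proteins bind unfolded stretches of other proteins and release them in a cycle driven by ATP. DnaJ proteins (HSP40s) deliver the client and start the ATP hydrolysis, and nucleotide exchange factors such as the HSP110 proteins reset the cycle. HSP90 finishes kinases and receptors, the HSP60 chaperonin folds proteins inside mitochondria, and small heat shock proteins hold misfolded proteins in a soluble state. After heat, oxidative stress or tissue handling the factor HSF1 binds heat shock elements and raises the inducible members, and the unfolded protein response raises those of the endoplasmic reticulum. The members were ordered here by these roles.

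The libraries held between 16044078 and 30606394 reads (median 19254498). Trem2 followed the labels, with 4367 to 5965 in knockout microglia and 3962 to 5211 in knockout transplanted cells against 31205 to 53908 in the other libraries. Sall1, which marks resident microglia, read 3420 to 9289 in the microglia libraries and 87.4 to 309 in the transplanted cells. Among the knockout microglia, S26 stood apart from S25 and S27 in neutrophil markers (summed level 55026 against 117591 and 126984) and in mitochondrial reads (0.071% against 0.257% and 0.246%). S30 and S31 held more oligodendrocyte RNA (24854 and 25154 against 7064 in S28 and 11101 in S29). The pairs S30 with S31, S22 with S23 and S25 with S27 were the most alike within their groups: a chi-square of their reads over its degrees of freedom gave 4.98, 6.21 and 9.86, where other pairs gave at least 13.57.

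Hspa8, the constitutive cytosolic HSP70, was the most abundant member per length of exon (7282 normalized counts per kb, mean of all 17 libraries). It was followed by Hspa5, the HSP70 of the endoplasmic reticulum also called BiP (5791 per kb), and by the cytosolic HSP90 Hsp90ab1 (3453 per kb). Hsp90b1, the HSP90 of the endoplasmic reticulum, came next (2838 per kb), and the heat-inducible pair Hspa1a (1772 per kb) and Hspa1b (1670 per kb) followed. Their place rested on the transplanted cells: in wild-type transplanted cells the means were 4031 and 3715 per kb, and in normal (703 and 714) and knockout microglia (564 and 506) both were below Dnajb1 (931 and 630). Dnajb1, the main partner of the inducible HSP70s, led the DnaJ members (837 per kb), and Hspbp1, a nucleotide exchange factor, stood at 589 per kb. The highest mitochondrial member was Hspa9 (581 per kb), and Hspe1 and Hspd1, which together form the mitochondrial chaperonin, stood close behind at 553 and 541 per kb. Dnaja2 (527 per kb) led the Dnaja genes, and Dnajc8, a spliceosome-linked protein, led the nuclear members (474 per kb). Among the small heat shock proteins Hspb3 was highest in this mean (204 per kb, against 102 for Hspb1), but in transplanted cells its group means (9.97 and 13.7 per kb) were below those of Hspb1 (123 and 30.6), and among the endocytic members Dnajc5 was highest (337 per kb). All members together took 0.582% to 0.788% of the reads of a library.

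Hspa1a lies on chr17:34969190-34972156 and Hspa1b on chr17:34956436-34959238, both on the minus strand (positions here are GRCm38). Their promoters are shown because the pair had the highest folds among the members that rose in transplanted cells against knockout microglia. Without S25 and S27 the log2 fold changes of Hspa1a and Hspa1b were 0.25 and 0.32 for knockout transplanted cells. For wild-type transplanted cells they were then 1.18 and 1.16. Against wild-type microglia the pair was not called with limma and all libraries. The windows from 250 bases before to 50 bases after the start site (RefSeq, GRCm38.p6; chr17:34972107-34972406 and chr17:34959189-34959488, minus strand) were identical at 296 of 300 positions (98.7%). Capitals mark a heat shock element of 2 units, searched as GAA and TTC, or TTC and GAA, with 2 bases of any kind between them, on both strands and with overlaps allowed.
Hspa1a: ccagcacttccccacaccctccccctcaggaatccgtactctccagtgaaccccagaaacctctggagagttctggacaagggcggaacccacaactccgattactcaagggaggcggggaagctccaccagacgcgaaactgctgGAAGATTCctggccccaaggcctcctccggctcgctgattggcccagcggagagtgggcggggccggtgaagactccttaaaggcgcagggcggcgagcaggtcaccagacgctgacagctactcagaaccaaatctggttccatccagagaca
Hspa1b: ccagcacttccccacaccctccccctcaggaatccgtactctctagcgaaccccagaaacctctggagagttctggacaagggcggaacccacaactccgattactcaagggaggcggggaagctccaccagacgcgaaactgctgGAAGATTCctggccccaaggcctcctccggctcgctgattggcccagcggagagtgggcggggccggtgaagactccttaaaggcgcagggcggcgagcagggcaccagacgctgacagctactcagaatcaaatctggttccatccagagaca
Each held GAAGATTC 104 bases before the start site.

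The windows of Hspb1, the small heat shock protein HSP27 (chr5:135887669-135887968, plus strand), and of Hspb3, a small heat shock protein known from muscle (chr13:113663627-113663926, minus strand), are shown because these genes had large differences between the groups. The capitals mark the same 2-unit element.
Hspb1: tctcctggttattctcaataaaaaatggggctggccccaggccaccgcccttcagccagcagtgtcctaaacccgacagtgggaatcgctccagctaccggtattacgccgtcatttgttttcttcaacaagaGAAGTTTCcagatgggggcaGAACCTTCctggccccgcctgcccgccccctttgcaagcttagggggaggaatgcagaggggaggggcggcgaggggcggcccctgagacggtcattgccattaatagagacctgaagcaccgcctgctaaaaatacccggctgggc
Hspb3: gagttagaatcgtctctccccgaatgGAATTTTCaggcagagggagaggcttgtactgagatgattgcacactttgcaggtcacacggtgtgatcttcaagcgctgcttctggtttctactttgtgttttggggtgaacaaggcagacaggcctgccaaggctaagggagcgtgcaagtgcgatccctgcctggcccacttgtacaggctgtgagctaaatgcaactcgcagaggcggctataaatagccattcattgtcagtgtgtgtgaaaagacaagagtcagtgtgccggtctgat
Hspb1 held GAAGTTTC 117 bases and GAACCTTC 97 bases before the start site, and Hspb3 held GAATTTTC 224 bases before it.

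The window of Hspa5 (chr2:34771840-34772139, plus strand) is shown because of a test of whether the Trem2 difference differed between microglia and transplanted cells. With all libraries Hspa5 was the only member called there, and the call was lost without S22, S23, S30 or S31. Capitals mark an endoplasmic reticulum stress element, searched on both strands as CCAAT, 9 bases of any kind, CCACG.
Hspa5: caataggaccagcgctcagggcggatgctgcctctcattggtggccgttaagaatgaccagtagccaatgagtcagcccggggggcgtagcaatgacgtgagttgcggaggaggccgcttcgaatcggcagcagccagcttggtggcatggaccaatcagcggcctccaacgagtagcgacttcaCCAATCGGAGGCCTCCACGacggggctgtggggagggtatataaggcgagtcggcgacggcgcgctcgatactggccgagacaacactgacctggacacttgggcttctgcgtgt
The element started 65 bases before the start site.

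RefSeq promoters were found for 57 of the 69 members (74 windows, because some genes have several start sites). The 2-unit heat shock element was in 17 of the 74 windows, against 15.1% of all 32851 promoter windows of the same length. A 3-unit element (GAA, TTC and GAA, or TTC, GAA and TTC, each 2 bases apart) was in 6 windows (8.11%) of Dnajb6, Hspd1, Hspe1 and Hsph1, against 0.603% of all windows. The 2 windows of Dnajb6 overlap and hold the same element, as do the 2 of Hsph1, so the 6 windows hold fewer separate sites. In Hspe1 the units ran on as TTCTAGAACCTTC and GAACCTTCCGGAA, 89 and 84 bases before its start, and the same run read from the other strand served Hspd1, which is transcribed away from Hspe1 on chr1. The endoplasmic reticulum stress element was in 3 windows (4.05%), those of Hspa5, Hsp90b1 and Dnajc3, against 0.119% of all. No window of Dnajb1 held any of these letter patterns, and a match here is a description of the sequence, not a site shown to be bound.

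Among the heat-inducible cytosolic members, the inducible HSP70 pair Hspa1a and Hspa1b had the widest range between libraries. Values are normalized read counts in the library order given above. Hspa1a read 1691, 1834 and 2729 in normal, 2916, 3107 and 2676 in wild-type 5xFAD and 370, 4324 and 328 in knockout 5xFAD microglia, 3267, 21883, 11867 and 10828 in wild-type and 7532, 5059, 3289 and 5652 in knockout transplanted cells. Hspa1b read 1547, 1772 and 2681 in normal, 2803, 2865 and 2041 in wild-type 5xFAD and 204, 3822 and 228 in knockout 5xFAD microglia, 2722, 18007, 10565 and 10363 in wild-type and 7374, 4227, 3221 and 5133 in knockout transplanted cells. In both genes S29 was highest, S25 and S27 were lowest, and the third knockout microglia library, S26, was above all normal and wild-type microglia. The ratio of Hspa1a to Hspa1b was 1.02 to 1.82 across the libraries, and because these 2 genes are nearly identical, the split of reads between them is uncertain. Their sum was 574 in S25, 556 in S27 and 8146 in S26, against 3239 to 5972 in the other microglia, 5989 to 39890 in wild-type and 6510 to 14906 in knockout transplanted cells.

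Dnajb1, the co-chaperone induced along with HSP70, read 2975, 2987 and 2986 in normal, 2390, 2440 and 2047 in wild-type 5xFAD and 1476, 2970 and 1610 in knockout 5xFAD microglia, 2488, 3408, 2902 and 3222 in wild-type and 2838, 2828, 2892 and 3123 in knockout transplanted cells. Its values were lowest in S25 and S27 as well, while S26 lay close to the normal libraries. Hsph1, an HSP110 exchange factor, read 558, 482 and 786 in normal, 655, 756 and 560 in wild-type 5xFAD and 392, 439 and 421 in knockout 5xFAD microglia, 649, 824, 455 and 372 in wild-type and 877, 624, 720 and 769 in knockout transplanted cells. In Hsph1 all 3 knockout microglia libraries, S26 included, were below every normal, wild-type microglia and knockout transplant library. Hsp90aa1, the inducible cytosolic HSP90, went the other way, with 891, 1298 and 1264 in normal, 1499, 1574 and 1593 in wild-type 5xFAD and 2902, 1160 and 2919 in knockout 5xFAD microglia, 1241, 1355, 1572 and 1472 in wild-type and 1206, 1429, 1856 and 1257 in knockout transplanted cells. Here S25 and S27 were the highest of all libraries and S26 was among the lowest.

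**Figure D1:**
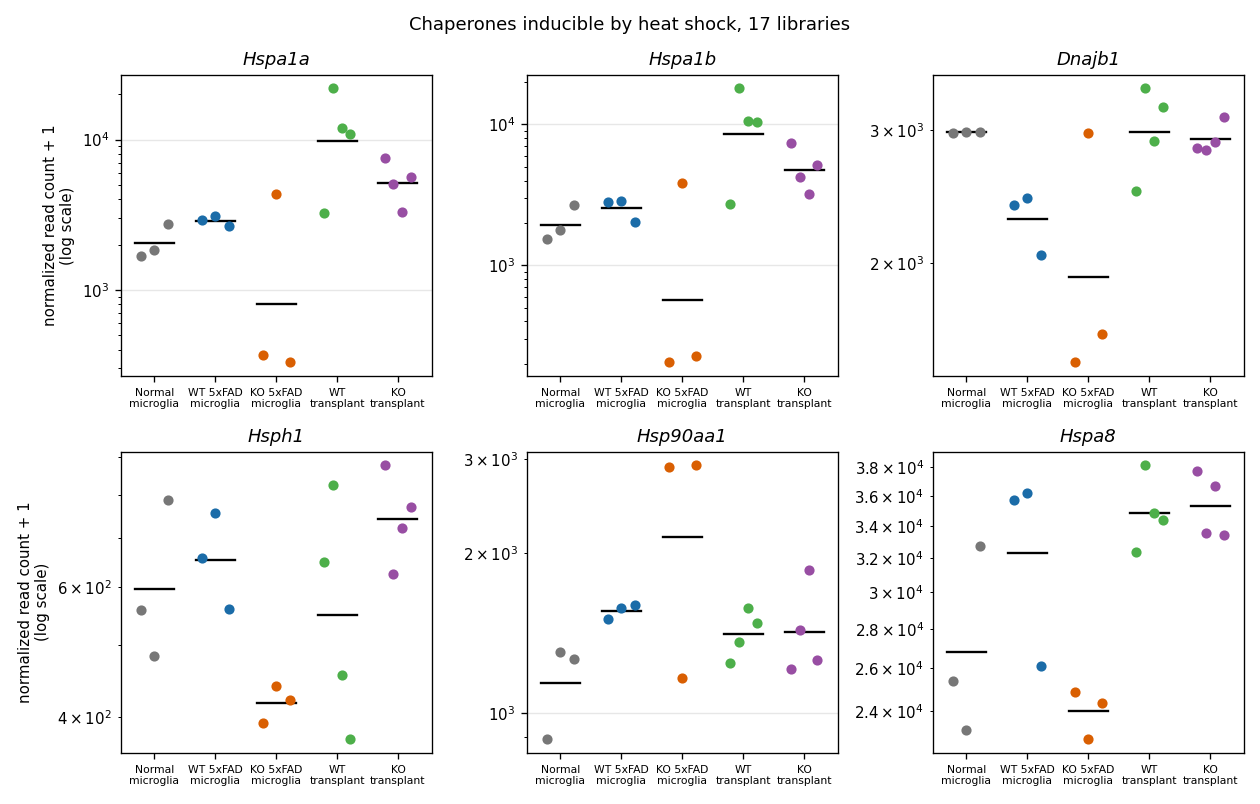
Normalized read counts plus 1 on a log axis for Hspa1a, Hspa1b, Dnajb1, Hsph1, Hsp90aa1 and Hspa8 in each of the 17 libraries, by group; points are libraries and bars the means of the log values. S25 and S27 lie far below S26 for Hspa1a (370 and 328 against 4324) and above it for Hsp90aa1 (2902 and 2919 against 1160).

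Hspa8, the constitutive HSP70, read 25368, 23139 and 32775 in normal, 35714, 36218 and 26094 in wild-type 5xFAD and 24851, 22745 and 24372 in knockout 5xFAD microglia, 32397, 38132, 34855 and 34374 in wild-type and 37736, 33558, 36639 and 33441 in knockout transplanted cells. The knockout microglia overlapped the normal libraries but were below every transplant library. Hsp90ab1 read 9197, 8029 and 11449 in normal, 11819, 11633 and 9626 in wild-type 5xFAD and 9271, 7553 and 8759 in knockout 5xFAD microglia, 10679, 13064, 12236 and 11849 in wild-type and 11610, 10489, 9474 and 9281 in knockout transplanted cells. Its knockout microglia libraries were all below the wild-type transplanted cells. Hspa4l, an HSP110 relative, read 63.3, 74.2 and 95.2 in normal, 128, 143 and 113 in wild-type 5xFAD and 160, 83.2 and 147 in knockout 5xFAD microglia, 207, 191, 198 and 238 in wild-type and 236, 206, 290 and 231 in knockout transplanted cells. All transplant libraries were above all microglia libraries for Hspa4l.

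Dnaja1, a DnaJ partner of HSP70 in the cytosol, read 1687, 1873 and 2413 in normal, 1935, 1958 and 1987 in wild-type 5xFAD and 1933, 1517 and 1880 in knockout 5xFAD microglia, 2053, 2527, 1208 and 1186 in wild-type and 2137, 2121, 2809 and 2398 in knockout transplanted cells. Its lowest values, in S30 and S31, and its highest, in S34, were both among transplanted cells. Hspd1, the HSP60 chaperonin, read 1222, 1115 and 1341 in normal, 1403, 1505 and 1477 in wild-type 5xFAD and 1669, 1032 and 1640 in knockout 5xFAD microglia, 1541, 1527, 1339 and 1298 in wild-type and 1371, 1463, 1885 and 1478 in knockout transplanted cells. Its lid Hspe1 read 693, 752 and 800 in normal, 680, 814 and 802 in wild-type 5xFAD and 942, 673 and 938 in knockout 5xFAD microglia, 654, 1044, 1007 and 793 in wild-type and 767, 686, 994 and 807 in knockout transplanted cells. Neither chaperonin gene passed the test in any comparison, with log2 fold changes between -0.11 and 0.26 for Hspd1 and between -0.14 and 0.17 for Hspe1 over the 6 comparisons of groups, and all groups overlapped except wild-type 5xFAD over normal microglia for Hspd1. Their annotated ends overlap by 112 bases on opposite strands, and since the library kit does not mark strand, reads there cannot be assigned to either.

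Hspb1 (chr5:135887919-135889563) is a small heat shock protein that holds misfolded proteins and binds actin. It read 61.3, 58 and 36.2 in normal, 196, 197 and 251 in wild-type 5xFAD and 116, 103 and 131 in knockout 5xFAD microglia, 80.5, 192, 130 and 104 in wild-type and 36.7, 45.7, 14.9 and 28.8 in knockout transplanted cells. Wild-type 5xFAD microglia and wild-type transplanted cells were above the normal microglia and the knockout transplanted cells without overlap, and knockout microglia lay between the normal and wild-type microglia. Hspb3 (chr13:113662896-113663676) read 231, 297 and 180 in normal, 224, 240 and 305 in wild-type 5xFAD and 470, 248 and 443 in knockout 5xFAD microglia, 17.9, 2.27, 0 and 11 in wild-type and 20.3, 1.87, 13.8 and 6.87 in knockout transplanted cells. Every microglia library stood far above every transplant library. Hspb8, the small heat shock protein of selective autophagy, read 9.04, 0.95 and 2.27 in normal, 15.7, 11.3 and 12.4 in wild-type 5xFAD and 11.3, 14.2 and 27.1 in knockout 5xFAD microglia, 8.95, 40.9, 3.94 and 14.6 in wild-type and 1.93, 1.87, 6.39 and 6.87 in knockout transplanted cells, and Hspb6 read 64.3, 42.8 and 27.2 in normal, 61.9, 52.7 and 49.5 in wild-type 5xFAD and 25.7, 63.5 and 45.5 in knockout 5xFAD microglia, 72.7, 101, 113 and 82.9 in wild-type and 44.4, 70.9, 41.5 and 70 in knockout transplanted cells.

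In the endoplasmic reticulum, Hspa5 (chr2:34771970-34777547) read 21824, 21251 and 24599 in normal, 27529, 29147 and 27205 in wild-type 5xFAD and 19797, 16093 and 22039 in knockout 5xFAD microglia, 24302, 28315, 20364 and 19085 in wild-type and 30576, 28482, 30925 and 24782 in knockout transplanted cells. The 3 wild-type microglia libraries were above all knockout microglia, whereas the groups of transplanted cells overlapped, with 3 of 4 knockout libraries above all wild-type ones. Hsp90b1, also called GRP94, read 9798, 11105 and 11956 in normal, 12292, 11768 and 13140 in wild-type 5xFAD and 16314, 8609 and 16023 in knockout 5xFAD microglia, 10130, 7737, 9453 and 9887 in wild-type and 10445, 11370, 14734 and 9743 in knockout transplanted cells, with S25 and S27 highest. Dnajb9 (ERdj4), which brings clients to Hspa5, read 1269, 1555 and 1188 in normal, 1141, 1010 and 1164 in wild-type 5xFAD and 964, 954 and 1279 in knockout 5xFAD microglia, 1065, 1097, 975 and 1129 in wild-type and 1187, 1328, 1848 and 1519 in knockout transplanted cells, with S34 highest. Dnajb14, a DnaJ protein anchored in the membrane of the endoplasmic reticulum (chr3:137867675-137916557), read 379, 404 and 350 in normal, 708, 652 and 759 in wild-type 5xFAD and 607, 413 and 573 in knockout 5xFAD microglia, 1222, 1084, 983 and 905 in wild-type and 977, 1322, 1633 and 1224 in knockout transplanted cells. Normal microglia were lowest and all transplant libraries were above all microglia libraries.

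Hspa9, the mitochondrial HSP70, read 2264, 1957 and 2106 in normal, 2271, 2593 and 2689 in wild-type 5xFAD and 2603, 2216 and 2333 in knockout 5xFAD microglia, 2550, 2933, 2738 and 2543 in wild-type and 2400, 2724, 3039 and 2600 in knockout transplanted cells. Hspa2, an HSP70 known from testis, read 84.4, 92.3 and 99.7 in normal, 123, 130 and 103 in wild-type 5xFAD and 99.7, 96.3 and 93.2 in knockout 5xFAD microglia, 97.3, 121, 151 and 190 in wild-type and 75.3, 120, 82 and 92 in knockout transplanted cells. Dnajb6, a DnaJ protein that holds back aggregation of amyloid-forming proteins, read 1167, 1393 and 1231 in normal, 1394, 1531 and 1492 in wild-type 5xFAD and 1789, 1069 and 1868 in knockout 5xFAD microglia, 1378, 1340, 1167 and 1162 in wild-type and 1381, 1326, 1785 and 1320 in knockout transplanted cells. These 3 genes passed the test in no comparison, with log2 fold changes of at most 0.25 for Hspa9, 0.57 for Hspa2 and 0.22 for Dnajb6, and the largest decrease was -0.28, in Dnajb6.

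Dnaja4, a DnaJ protein linked in earlier work to sterol regulation (chr9:54698873-54716315), read 515, 461 and 637 in normal, 421, 436 and 396 in wild-type 5xFAD and 405, 505 and 383 in knockout 5xFAD microglia, 179, 122, 117 and 176 in wild-type and 127, 132, 138 and 172 in knockout transplanted cells. Hspa12a, a distant HSP70 relative (chr19:58795750-58943654), read 68.3, 90.4 and 79.3 in normal, 123, 88.1 and 180 in wild-type 5xFAD and 64.8, 58 and 35.8 in knockout 5xFAD microglia, 3.36, 2.27, 25 and 0 in wild-type and 7.72, 0, 9.59 and 6.87 in knockout transplanted cells. For both genes every microglia library stood above every transplant library. The window of the second Dnaja4 start site held 2-unit elements (GAACGTTC and GAACCTTC) 90 and 52 bases before it. Dnaja4 shares 1581 bases of exon with Wdr61 on the opposite strand, so part of its reads could belong to that gene.

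**Figure D2:**
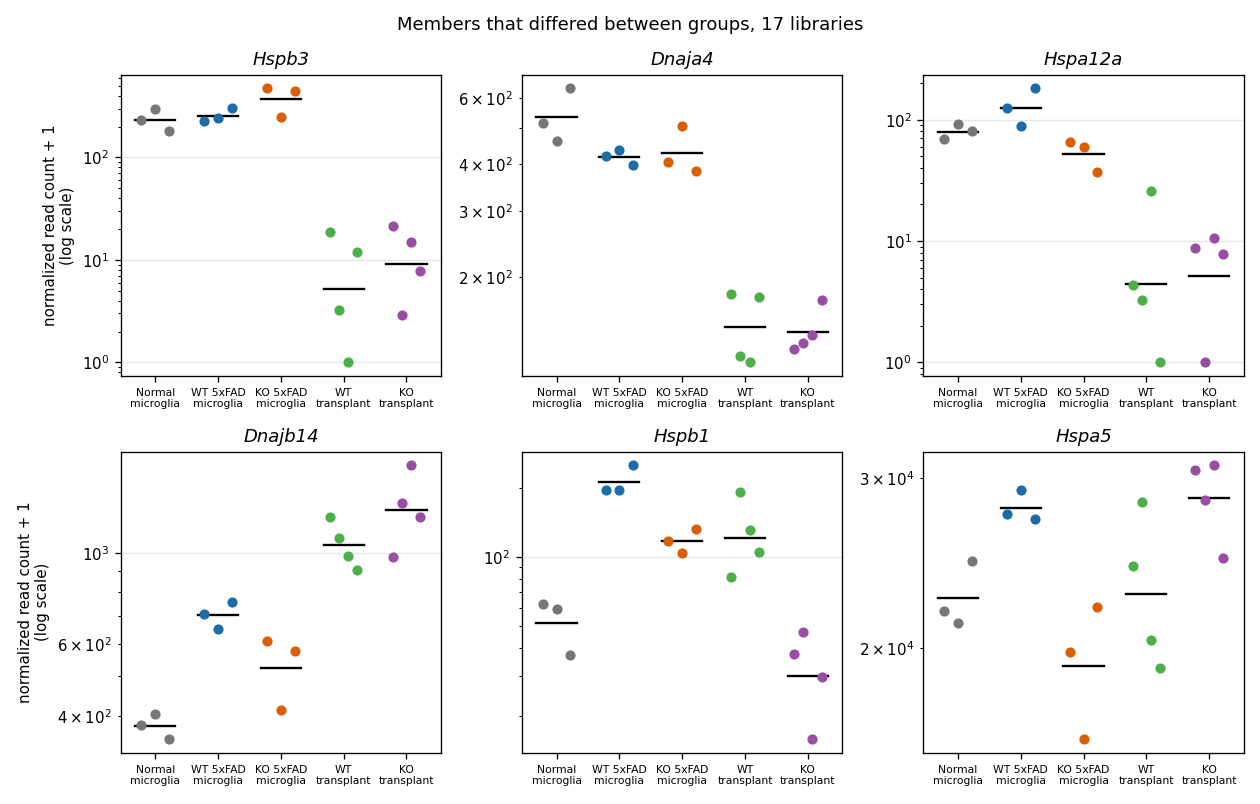
Normalized read counts plus 1 on a log axis for Hspb3, Dnaja4, Hspa12a, Dnajb14, Hspb1 and Hspa5 in each of the 17 libraries, by group; points are libraries and bars the means of the log values. Hspb3, Dnaja4 and Hspa12a are lower in all 8 transplant libraries than in all 9 microglia libraries, Dnajb14 is higher, and Hspb1 is highest in wild-type 5xFAD microglia (196 to 251).

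Differences between groups were tested with limma on log2(value + 1) over all 12074 genes that passed the floor, with Benjamini-Hochberg adjustment over all of them, and a member is said to have risen or fallen where its adjusted p was under 0.05. Fold changes on this scale understate the change of low genes. The comparisons share groups with each other, so their results are not independent.

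Amyloid in Trem2 wild-type mice was addressed by comparing wild-type 5xFAD with normal microglia. Hspb1 and Dnajb14 rose and no member fell: 2 of 65 members (3.08%), against 3.78% of all genes tested (2.83% rose and 0.952% fell). Hspb1 rose from 51.9 ± 13.6 to 214 ± 31.9 (SD, n = 3 each), a log2 fold change of 2.05 (SE 0.377, limma adjusted p = 0.00285). Dnajb14 rose from 378 ± 27.2 to 706 ± 53.5 (SD, n = 3 each; log2 fold change 0.90, SE 0.181, adjusted p = 0.00611). Both calls held without any single library and under each other setting tried. The median over the 65 members was 0.13, against 0.00 over all genes, and 26 members did not overlap between the groups, against 33.6% of all genes.

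Endothelial cells also express Hspb1. The endothelial marker sum was 950 to 1483 in normal and 1934 to 2212 in wild-type 5xFAD microglia, Tek alone of its 10 markers was at 0 in a library of these groups (S36), and 2 of the 10 rose. The part of these cells in the Hspb1 difference was not tested. Hspb8, another small heat shock protein, stood at 0.95 to 9.04 in normal and 11.3 to 15.7 in wild-type 5xFAD microglia (log2 fold change 1.81, adjusted p = 0.26). Hspa12b, an HSP70 relative of the endothelium, stood at 0 to 3.81 and 8.46 to 19.6 (2.43, adjusted p = 0.135). Dnajb1 went from 2975 to 2987 in normal microglia to 2047 to 2440 without overlap, and this did not pass (-0.38, adjusted p = 0.332). In a model of these 2 groups alone 8 members passed (12.3%, against 14.6% of all genes), the fall of Dnajb1 (-0.38, adjusted p = 0.011) and rises of Hspa4 (0.42), Hspa5 (0.31), Hspa1a (0.51) and Hsp90aa1 (0.45) among them. Without S26, a library of neither group that enters the shared estimate of the spread, 6 members passed (9.23%, against 6.79% of all genes).

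Trem2 in microglia was addressed by comparing wild-type with knockout 5xFAD microglia. Hspa5 was the only member to pass: 1 of 65 (1.54%), against 5.09% of all genes (2.59% higher and 2.5% lower). It was higher in wild type, at 27960 ± 1040 against 19310 ± 3003 (SD, n = 3 each; log2 fold change 0.55, SE 0.15, adjusted p = 0.0418). This call was lost without S22, S23, S24 or S25, with edgeR (0.53, adjusted p = 0.0616) and in a model of these 2 groups alone, but kept with DESeq2 (0.53, adjusted p = 0.0103). The members' median was 0.08, against 0.01 over all genes, and 17 members did not overlap, against 22.2% of all genes.

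The other members depended on S26. Hspa1a stood at 1.84 (adjusted p = 0.153) and Hspa1b at 2.17 (adjusted p = 0.129) with all libraries. Without S26, 17 of 65 members passed (26.2%, against 30.4% of all genes), 9 higher and 8 lower in wild type. Hspa1b was then higher in wild type by 3.55 (adjusted p = 0.000159), Hspa1a by 3.05 (adjusted p = 0.000485) and Dnajb1 by 0.57 (adjusted p = 0.0036), and Hsp90aa1 was lower, at -0.90 (adjusted p = 0.00174). Without S25 and S27 instead, only Hspa5 passed (0.80, adjusted p = 0.0441), and Hspa1a stood at -0.58 (adjusted p = 0.827). Of the 65 members, Hspa1a, Hspa1b and Dnajb13 were at least 2-fold higher in S26 than in both S25 and S27 (4.62%, against 5.33% of all genes), and Dnajc19, Dnajc2, Dnajc6, Hsp90aa1 and Hspb11 were at least 2-fold lower (7.69%, against 10.8%).

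Markers of other cells moved with this group. Of 10 monocyte markers 9 were lower in wild type (sum 3241 to 3792 against 9892 to 21819), as were 6 of 10 markers of hematopoietic-origin brain macrophages. The neutrophil sum was 15103 to 18004 in wild-type microglia and 55026 to 126984 in knockout microglia, with 10 of 11 tested markers lower in wild type and none at 0 in any library. Csf3r made up most of the sum in wild type (11125 to 12883). It was not among those 10 (6698 to 11101 in knockout microglia). The sum of immediate early genes, which respond to stimulation and to tissue handling, was 98890 in S25 and 95592 in S27 against 167117 in S26 and 180320 to 207893 in wild-type microglia. The part of these in the chaperone values was not tested.

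Trem2 in transplanted cells was addressed by comparing cells from wild-type and knockout donors in the same kind of host. Hspb1 and Hspbp1 were higher and Hspa13 lower in wild-type cells: 3 of 65 members (4.62%), against 6.74% of all genes (3.75% higher and 2.99% lower). Hspb1 stood at 127 ± 48.2 against 31.5 ± 13.1 (SD, n = 4 each; log2 fold change 2.00, SE 0.326, adjusted p = 0.00476), higher in 4 of 4 wild-type libraries than in any knockout one. Hspbp1 read 1236, 1245, 1785 and 1554 in wild-type and 1180, 1086, 875 and 992 in knockout cells (0.48, adjusted p = 0.0414). Hspa13, an HSP70 of the microsomes, read 901, 813, 727 and 671 in wild-type and 1147, 1108, 1603 and 1281 in knockout cells (-0.72, adjusted p = 0.0101). The groups of these 3 genes did not overlap, which held for 6 of 65 members and for 13.7% of all genes.

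Hspb1 kept its call without any 1 library, but lost it without S30 and S31 together and in a model of these groups alone. Its log2 fold change lay between 1.69 and 2.21 over these settings and the others tried. Hspbp1 lost its call without S30, S31, S33, S34 or S35, and Hspa13 without S31. Both also lost it without S30 and S31 together, in a model of these groups alone and with the closest libraries averaged. Hspbp1 lost it with edgeR and with TMM rescaling as well. The number of members called was 7 without S26 (13.7% of all genes) or without S28 (15.6%), and 1 without S31 (0.936%). The oligodendrocyte sum was 7064 to 25154 in wild-type and 4535 to 6234 in knockout cells, with 6 of 11 markers higher and Cldn11 at 0 in the knockout libraries. The endothelial sum was 420 to 1895 in wild-type and 443 to 564 in knockout cells, with 2 of 10 markers higher and Cdh5 at 0 in S28, S29 and S34. The part of either in these differences was not tested. Hspa1a, with 3267 to 21883 against 3289 to 7532, did not pass (0.92, adjusted p = 0.351), nor did Hspa1b (0.85, adjusted p = 0.443).

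The difference of these 2 Trem2 effects was tested as an interaction, and Hspa5 was the only member to pass: 1 of 65 (1.54%), against 2.82% of all genes (1.95% higher and 0.87% lower). Its Trem2 difference was 0.55 in microglia and -0.33 (adjusted p = 0.121) in transplanted cells, and the difference between them was -0.88 (SE 0.199, adjusted p = 0.0215). It was kept with edgeR (-0.91, adjusted p = 0.0206) and DESeq2 (-0.85, adjusted p = 0.00144), and lost without S22, S23, S30 or S31. Without S26 10 members passed (15.4%, against 13.8% of all genes), and without S29 it was 2 (3.21% of all genes). Hsph1 stood at -1.08 (adjusted p = 0.0767). Hspb1, higher with Trem2 by 2.00 in transplanted cells and by 0.87 (adjusted p = 0.19) in microglia, was not shown to differ between them (1.13, adjusted p = 0.232). Of 11 neutrophil markers 10 also passed in this test, and their part in the Hspa5 result was not tested.

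Origin with Trem2 present was addressed by comparing wild-type transplanted cells with wild-type 5xFAD microglia. Of 65 members 5 rose and 8 fell, against 28.2% of all genes (13.6% rose and 14.6% fell). Hspb3 fell from 256 ± 42.7 (SD, n = 3) to 7.79 ± 8.23 (SD, n = 4), a log2 fold change of -5.61 (SE 0.776, adjusted p = 2.25e-05). Hspa12a fell by 4.84 (adjusted p = 0.000355), and Dnaja4 fell from 418 ± 20.3 (SD, n = 3) to 148 ± 33.6 (SD, n = 4; -1.51, SE 0.193, adjusted p = 8.76e-06). These 3 calls held without any single library and under every other setting tried, which was true of none of the other 10.

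The other 10 calls were smaller. In mitochondria Dnajc15, which regulates import, rose by 0.81 (adjusted p = 0.0104) and Dnajc28 fell by 0.73 (adjusted p = 0.022). In the endoplasmic reticulum Dnajb14 rose by 0.56 (adjusted p = 0.0181), while Dnajc1 (-0.55, adjusted p = 0.0185), Hspa13 (-0.45, adjusted p = 0.0339) and Dnajc25 (-0.64, adjusted p = 0.0374) fell. Dnajc5, the cysteine string protein of secretory vesicles, fell by 0.48 (adjusted p = 0.0392). Hspa4l rose by 0.70 (adjusted p = 0.0307) and Hspbp1 by 0.44 (adjusted p = 0.0311), and Dnajc17, a spliceosome-linked DnaJ protein, rose by 0.61 (adjusted p = 0.0436). Dnajc15 lost its call without S22, Dnajb14 without S22 or S23, and Dnajc28 without S22, S23 or S30. Dnajc1 (S23, S24, S30 or S31), Hspa4l (S22, S24, S30 or S31) and Dnajc25, Hspa13, Hspbp1 and Dnajc5 (S22, S23, S24, S30 or S31) lost theirs when any 1 of the libraries in parentheses was left out, and Dnajc17 when any 1 of the 7 was. Members called numbered 4 to 6 without S22, S23, S24, S30 or S31, when 19.8% to 23.4% of all genes were called.

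Hspa1a and Hspa1b were not called here (1.76, adjusted p = 0.0611 and 1.75, adjusted p = 0.0897). For Hspa1a the lowest transplant library, S28 (3267), was just above the highest wild-type microglia library, S23 (3107), and without S28 it rose by 2.29 (adjusted p = 0.0137). Without S26, which is in neither group but enters the shared estimate of the spread, Hspa1a (1.76, adjusted p = 0.00293) and Hspa1b (1.75, adjusted p = 0.00376) passed, as did 20 of the 65 members (30.8%, against 33.8% of all genes). With edgeR the Hspa1a difference was 1.99 (adjusted p = 0.0453) and with DESeq2 it was 2.04 (adjusted p = 0.0223). The members' median was -0.11, against -0.03 over all genes, and 24 members did not overlap, against 41.1% of all genes.

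Origin without Trem2 was addressed by comparing knockout transplanted cells with knockout 5xFAD microglia. Of 65 members 10 rose and 5 fell (23.1%), against 25.4% of all genes (11.7% rose and 13.7% fell). The 3 members that fell most with Trem2 fell here too: Hspb3 by 5.35 (adjusted p = 4.48e-05), Hspa12a by 3.33 (adjusted p = 0.00819) and Dnaja4 by 1.59 (adjusted p = 6.02e-06). Hspb1 fell from 117 ± 14.1 (SD, n = 3) to 31.5 ± 13.1 (SD, n = 4; -1.95, SE 0.352, adjusted p = 0.000414). Dnajb14 rose from 531 ± 104 (SD, n = 3) to 1289 ± 272 (SD, n = 4; 1.27, SE 0.169, adjusted p = 1.68e-05). The call of Hspa12a was lost without S25 and S27 together, and the others held in every setting tried.

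Of 14 HSP70 and HSP110 members 6 rose and 2 fell in this comparison (11.7% and 13.7% of all genes). Of the 6, Hspa1a and Hspa1b rested on S25 and S27, as described below. Hspa8 rose from 23989 ± 1104 (SD, n = 3) to 35344 ± 2176 (SD, n = 4; 0.56, SE 0.135, adjusted p = 0.00479). Hspa5 rose from 19310 ± 3003 (SD, n = 3) to 28691 ± 2820 (SD, n = 4; 0.58, adjusted p = 0.00503), and Hspa4l rose by 0.92 (adjusted p = 0.00643). These 3 calls held in every setting tried. Hsph1 rose by 0.83 (adjusted p = 0.0113), a call lost without S25 and S27 together, where the difference was 0.76 (adjusted p = 0.14).

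Hspa1b (3.08, adjusted p = 0.00493), Hspa1a (2.67, adjusted p = 0.00678) and Dnajb1 (0.60, adjusted p = 0.0169) also passed with limma, but these calls rested on S25 and S27. Without those libraries the differences were 0.32 (adjusted p = 0.776), 0.25 (adjusted p = 0.817) and -0.03 (adjusted p = 0.932). Without S26 they were 4.46, 3.88 and 0.92, and 24 of 65 members were called (36.9%, against 37.4% of all genes). The Hspa1a and Dnajb1 calls were also lost without S25 or S27 alone. The Hspa1a call was lost with edgeR (1.69, adjusted p = 0.0908) and with DESeq2 (1.68, adjusted p = 0.0736), and the Hspa1b call was lost with edgeR (1.82, adjusted p = 0.0956) and DESeq2 (1.82, adjusted p = 0.0652). Hspa12b fell by 2.61 (adjusted p = 0.0199), from 10.9 to 26.7 in microglia to 0.93 to 7.55 in transplanted cells. Its call was lost without S25, S27 or S33.

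The astrocyte and endothelial sums were also lower in transplanted cells than in 5xFAD microglia of the same Trem2 genotype. The astrocyte sum was 5194 to 8075 in wild-type and 5430 to 9326 in knockout 5xFAD microglia against 1191 to 1776 in wild-type and 835 to 1134 in knockout transplanted cells, with 4 and 9 of 9 markers lower in the pairs of groups. Slc1a3 alone made up most of this sum in the 5xFAD microglia (3241 to 4930). Gfap was not lower with Trem2, at 63.3 to 86.5 in wild-type 5xFAD microglia and 79.6 to 218 in wild-type transplanted cells. The endothelial sum was 1483 to 2180 in knockout microglia and 443 to 564 in knockout transplanted cells, with 6 of 10 markers lower. In the wild-type pair the endothelial sum was 1933.9 to 2211.5 in microglia, and 420.5 in S28 and 751.7 in S29. It was 1817.7 in S30 and 1895.4 in S31, just below those microglia and above S26 (1483). No astrocyte marker was at 0, and of the endothelial ones Cdh5 was at 0 in S28, S29 and S34. Neutrophil and monocyte markers went in opposite directions in the 2 comparisons. With Trem2 the neutrophil sum was 15103 to 18004 in microglia and 20843 to 30119 in transplanted cells, with 10 of 11 markers higher, and 6 of 10 monocyte markers were higher. Csf3r made up most of the neutrophil sum in these microglia (11125 to 12883). It was not among those 10 (8206 to 11390 in the transplanted cells). Without Trem2 the neutrophil sum was 55026 to 126984 in microglia and 15766 to 36172 in transplanted cells, with 10 of 11 markers lower, and 9 of 10 monocyte markers were lower. T and NK cell markers were higher in transplanted cells (9 of 11 with and 8 of 11 without Trem2). The part of all these in the results on origin, among them the falls of Hspb3, Hspa12a, Hspb1 and Hspa12b, was not tested.

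Wild-type transplanted cells were also compared with knockout microglia, where Trem2 and the origin of the cells changed together. Of 65 members 12 rose and 9 fell (32.3%), against 35.1% of all genes (17.3% rose and 17.8% fell), and the count ranged from 10 without S25 (22.7% of all genes) to 33 without S26 (48.7% of all genes) as single libraries were left out. The groups did not overlap for 14 members, against 31.2% of all genes. Hspb3 (-6.16, adjusted p = 8.31e-06), Dnaja4 (-1.55, adjusted p = 7.2e-06), Hspa12a (-3.57, adjusted p = 0.00428) and Dnajc28 (-0.83, adjusted p = 0.00918) fell. Hspa1b rose by 3.93 (adjusted p = 0.00061) and Hspa1a by 3.60 (adjusted p = 0.00056), and both calls were lost without S25 and S27 (1.16, adjusted p = 0.239 and 1.18, adjusted p = 0.217).

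Dnajb14 (0.99, adjusted p = 0.000224), Hspa8 (0.54, adjusted p = 0.00509), Hspbp1 (0.56, adjusted p = 0.00672), Hsp90ab1 (0.49, adjusted p = 0.00787), Dnajb1 (0.64, adjusted p = 0.0101) and Dnaja3, a mitochondrial DnaJ protein (0.40, adjusted p = 0.0148), rose as well. Of these 6 genes Dnajb14, Hspa8 and Hsp90ab1 kept the call in every setting tried. Dnajb1 was at 0.01 (adjusted p = 0.984) without S25 and S27. Leaving out S25 alone ended, among the members just named, the calls of Dnajb1, Dnaja3 and Dnajc28, and leaving out S27 alone that of Dnajb1. The other 9 members called had changes between -0.78 (Dnajb4) and 1.10 (Hspb6), and 8 of the 9 (all but Hspa4l) lost the call without S25, as did 7 of them without S27. Hsp90b1, among the 9 with -0.50 (adjusted p = 0.046), stood at 0.10 (adjusted p = 0.774) without S25 and S27.

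**Figure D3:**
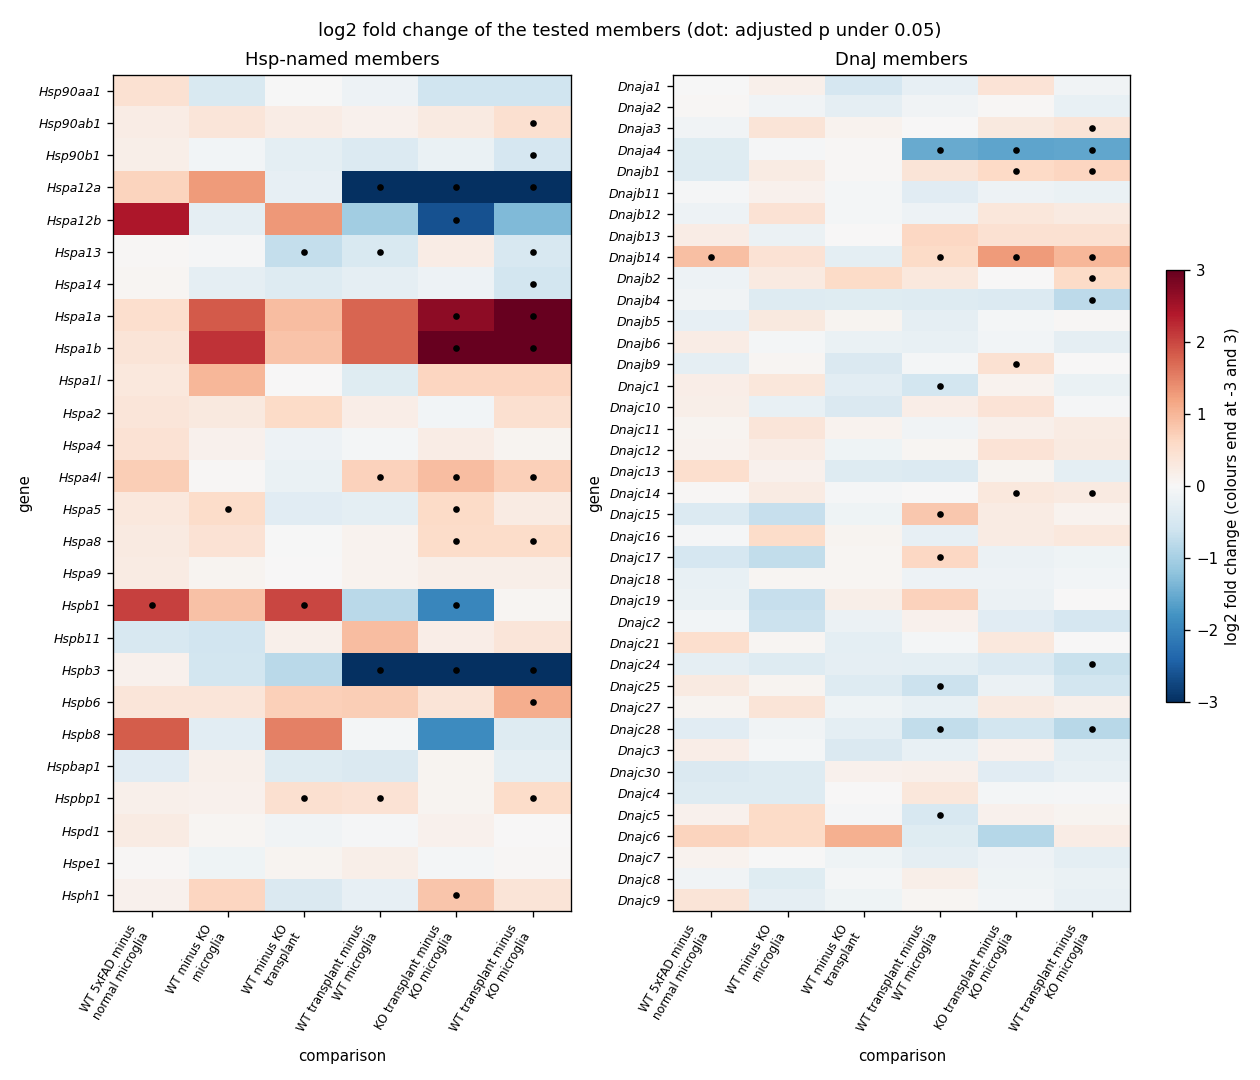
Log2 fold change of the 65 tested members (rows) in 6 comparisons (columns), Hsp-named members on the left and DnaJ members on the right; colours end at -3 and 3 and dots mark an adjusted p under 0.05. Hspb3, Hspa12a and Dnaja4 are lower in transplanted cells in all 3 comparisons with microglia, and Dnajb14 is higher in them.

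**Figure D4:**
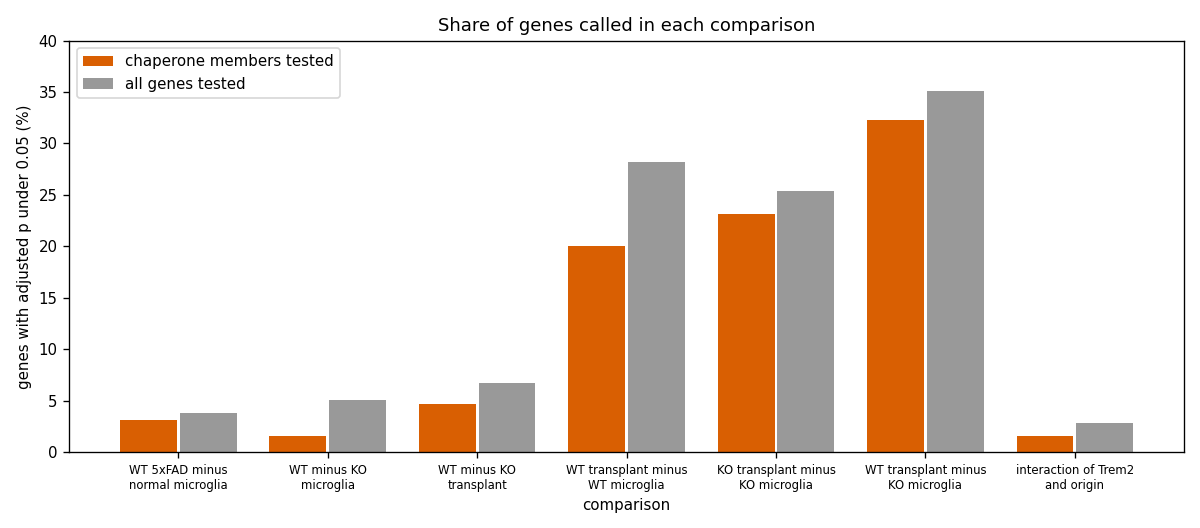
Percent of tested genes with an adjusted p under 0.05 in each comparison, for the 65 chaperone members (orange) and for all 12074 genes (grey). The members' share lies below that of all genes in each of the 7 comparisons, for example 3.08% against 3.78% for wild-type 5xFAD against normal microglia. The order turned in some other settings, as in this comparison without S26 (9.23% against 6.79%).

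By role, none of the 3 HSP90 genes passed outside the last comparison, where limma called Hsp90ab1 higher and Hsp90b1 lower (at an unadjusted p under 0.05 it was 1 in each of the comparisons of Trem2 in microglia, origin with and origin without Trem2). Of the 12 heat-inducible members 6 rose and 1, Hspb1, fell in the comparison of origin without Trem2 (11.7% and 13.7% of all genes), where 4 of the 6 (Hspa1a, Hspa1b, Dnajb1 and Hsph1) lost the call without S25 and S27, and 6 rose in wild-type transplanted cells against knockout microglia. Of all genes, 17.3% rose in wild-type transplanted cells against knockout microglia. In the comparison of origin with Trem2, 1 of the 12 rose (13.6% of all genes). Of 13 members of the endoplasmic reticulum 3 fell and 1 rose with Trem2 (14.6% and 13.6% of all genes). Without Trem2 3 rose and 0 fell (11.7% and 13.7% of all genes). Medians were -0.24 and 0.23, against -0.03 and -0.02 over all genes. Each of the calls with Trem2 was lost when some single library was left out. In the 10 mitochondrial members the counts were 1 up and 1 down with Trem2 (13.6% and 14.6% of all genes). Without Trem2 they were 0 in either direction (11.7% and 13.7% of all genes), with 3 at an unadjusted limma p under 0.05.

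Genes that work with the chaperones were read from lists. Of 28 co-chaperones of HSP70 and HSP90, 4 were higher and 0 lower with Trem2 in transplanted cells (3.75% and 2.99% of all genes). These were Fkbp8 (0.57), Cdc37, which loads kinases onto HSP90 (0.38), Stub1, the ubiquitin ligase CHIP (0.40), and Bag6 (0.63). Without S30 and S31, 0.166% of all genes were called in this comparison, and these 4 calls were not examined under that setting. In wild-type transplanted cells against wild-type microglia 5 rose and 0 fell (13.6% and 14.6% of all genes), among them Stub1 (0.49), Cdc37 (0.35) and Fkbp8 (0.41). Without Trem2 2 rose (against 11.7% of all genes), Bag2 (1.20) and Bag4 (0.65). Between microglia groups limma called 0 of the 28 for 5xFAD (1 at an unadjusted p under 0.05) and 0 for Trem2 (3 at an unadjusted p under 0.05).

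Of 5 tested regulators of the heat shock response, Hsf1 among them, only Hsf2bp, a testis protein that binds HSF2, was called: it fell by 3.41 with and 4.11 without Trem2 in transplanted cells against microglia. Of 14 subunits of the TRiC chaperonin and of prefoldin, which fold actin and tubulin, Cct2 alone passed, lower in wild-type transplanted cells than in wild-type microglia (-0.42). Of 27 tested genes of the unfolded protein response, Ppp1r15a (GADD34), which restarts translation, was the single gene higher with 5xFAD (1.59), with Trem2 in microglia (1.42) and with Trem2 in transplanted cells (0.92), and no other passed in those comparisons. Between transplanted cells and microglia, Edem1, a factor of degradation from the endoplasmic reticulum, fell with (-1.09) and without Trem2 (-0.99). With Trem2 2 genes of this list rose and 3, Edem1 among them, fell (13.6% and 14.6% of all genes). Without Trem2 6 rose and 1, Edem1, fell (11.7% and 13.7% of all genes). Among the 6 were the stress sensor Atf6 (0.80), Herpud1 (0.55) and Xbp1 (0.41). In wild-type transplanted cells against knockout microglia, where Hspa5 was not called, 8 rose and 3 fell (17.3% and 17.8% of all genes).

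In the list of 15 tested genes of mitochondrial protein quality control, 1 rose with Trem2 (Clpp, 0.38) and 1 without it (Afg3l2, 0.42). Of all genes 13.6% and 11.7% rose in these comparisons of origin. Of 21 immediate early genes 12 rose with 5xFAD (Nfkbiz 2.28, Egr2 2.43), against 2.83% of all genes. With Trem2, 8 were higher in microglia and 7 in transplanted cells (2.59% and 3.75% of all genes). In each of these comparisons 0 were lower. Medians of this list were 1.11, 0.82 and 0.72, against 0.00, 0.01 and 0.05 over all genes. For origin with Trem2, 2 rose and 6 fell (13.6% and 14.6% of all genes). For origin without Trem2, 1 rose and 2 fell (11.7% and 13.7% of all genes). In wild-type transplanted cells against knockout microglia 10 rose and 1 fell (17.3% and 17.8% of all genes). The part of the immediate early genes in the members called was not tested in any comparison.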

How the data were processed

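RNA-seq values for 17 libraries came as 1 deposited table of the normalized read signal: counts that the authors divided by a size factor for each library. Per the submitters' processing notes, the tools were bcl2fastq, STAR 2.5.2b, HTSeq, RSEM and DESeq2 (given as 3.17) with the mouse builds mm10 and GRCm38.p6; the sources used here do not give which tool made the counts, the annotation or the use of strand. Per the labels' protocols, RNA of DAPI-negative CD45+CD11b+ cells was made into libraries with the SMART-Seq v4 kit, which does not mark strand. Columns were matched to groups by their prefixes, and named by their sample number.

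Low values fell on whole multiples of 1 read in every library (at least 99.99% within 0.02), so reads were recovered for edgeR and DESeq2. The test was limma 3.58.1 (R 4.3.3; moderated with a trend, two-sided) on log2(value + 1) with 1 mean per group, over the 12074 genes that reached 10 in at least 3 libraries, leaving out 1427. Adjusted p-values are Benjamini-Hochberg over all of them. The model was tested on simulated data. Those libraries were drawn independently, without the split of S26 or the close pairs, so the simulation cannot show how these affect the calls. Sources do not say that libraries of a group are separate mice, so p-values measure only the spread between these samples, which may be technical. The members, role lists, pathway lists and marker lists were chosen with earlier results of these data known.

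Members named are the heat-inducible list, Hspa5, Hsp90b1, Dnajb9, Hspa9, Hspa2 and Dnajb6, every member called (the 12 with the smallest adjusted p where there were more), the highest member per kb of each role and those under the floor; of each pathway list, up to 4 genes with the smallest p per comparison. Other members named were chosen after their values were seen. Positions and exon lengths are from GENCODE vM21 (69 of 69 members matched), promoters from RefSeq (GRCm38.p6). Alternatives were other pseudocounts, no floor, TMM rescaling, edgeR 4.0.16, DESeq2 1.42.0, models of the compared groups alone, the closest libraries averaged, and libraries left out.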

Additional observations from a re-analysis of the deposited data

Results flagged for a closer look

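In 130 pairs of a member and a transplant group, Dixon's test marked 8 in which 1 library lay far from the other 3 (6.15%; chance marks about 1 in 20). In wild-type transplanted cells these were Dnajb4 in S28 (362 against 217 to 225), Dnajc2 in S28 (362 against 248 to 262) and Hspa14 in S29 (534 against 354 to 376). In knockout transplanted cells they were Dnajb12 in S32 (686 against 706 to 709), Dnajb6 in S34 (1785 against 1320 to 1381), Dnajc5 in S34 (1797 against 2223 to 2294), Hspa12a in S33 (0 against 6.9 to 9.6) and Hspa12b in S35 (7.55 against 0.9 to 1.1). S28 and S34 were each marked for 2 members. Groups of 3 libraries were not screened in this way.

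The Trem2 difference of Hspa5 differed between transplanted cells and microglia by -0.88 on the log2 scale in a test of the interaction (limma adjusted p = 0.0215), being 0.55 in microglia and -0.33 in transplanted cells. The call was lost without S22, S23, S30 or S31, without S30 and S31 together, and with the closest libraries averaged.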

How the results depend on the processing

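Of 56 calls of members, 25 held without any 1 library and 17 under every alternative, while 39 were lost under at least 1. The alternative without S25 and S27 was chosen after seeing the data. Leaving out S26, also planned as an alternative, was counted only among the single-library ones.

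Shares in parentheses are those of all genes called under the same setting. The number of members called for 5xFAD was 2 (3.78%), and 8 in a model of the compared groups (14.6%), 3 with DESeq2 (6.37%) and 2 to 6 without single libraries (6 without S26, 6.79%). For Trem2 in microglia it was 1 (5.09%), and 0 with no floor (4.58%), TMM rescaling (5.11%), edgeR (4.71%), only these groups (2.3%) or the closest libraries averaged (1.37%), with 19, 19, 19, 15 and 4 members at an unadjusted p under 0.05. It was 6 with DESeq2 (8.29%) and 0 to 17 without single libraries (17 without S26, 30.4%). For Trem2 in transplanted cells it was 3 (6.74%), and 5 with DESeq2 (14.0%), 3 with edgeR (8.51%), 1 with libraries averaged (0.248%), and 1 to 7 without single libraries. It was 0 with only these groups (0.555%) or without S30 and S31 (0.166%), with 11 and 4 members at an unadjusted p under 0.05. The 3 with edgeR were 1 higher and 2 lower, whereas the 3 with limma were 2 higher and 1 lower. For origin with Trem2 it was 13 (28.2%), and 17 with DESeq2 (32.1%) or only these groups (32.8%), 3 with libraries averaged (16.7%), 4 without S30 and S31 (19.1%), and 4 to 20 without single libraries (20 without S26, 33.8%). For origin without Trem2 it was 15 (25.4%), and 9 with libraries averaged (17.4%), 17 without S25 and S27 (18.0%), and 11 to 24 without single libraries (24 without S26, 37.4%). For wild-type transplanted cells against knockout microglia it was 21 (35.1%), and 10 with only these groups (21.9%), 9 with libraries averaged (17.5%), 11 without S30 and S31 (22.6%), 9 without S25 and S27 (18.1%), and 10 to 33 without single libraries. For the interaction it was 1 (2.82%), and 4 with DESeq2 (7.25%), 0 with libraries averaged (0.596%) or without S30 and S31 (1.23%; 6 and 7 members at an unadjusted p under 0.05), 2 without S25 and S27 (1.35%), and 0 to 10 without single libraries (10 without S26, 13.8%).

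Without S25 and S27 the sign turned for Dnajb1 in origin without Trem2 (-0.026) and for Hsp90b1 in wild-type transplanted cells against knockout microglia (0.10). TMM rescaling moved S30 and S31 by 7.61% and 6.71% and the other libraries by at most 2.06%. The cause of these changes was not tested. Where 1 library was left in a group, it was assumed to vary like the other groups. No paired analysis was possible because the columns outside the normal group carry no distinct replicate number.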
